A study of Caenorhabditis elegans with 21 samples.

Results

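The stretches described here are those of the C. elegans genome whose RNA stood higher in the lin-61 single mutant than in every other genotype of the series. The genome had been divided into 500 bp windows, and 277 of the 200547 windows were chosen. A window was taken when its mean level over the 3 lin-61 libraries was at least 0.5 CPM (CPM, the reads of a window per 1000000 reads over all windows of its library) and at least 2 times the mean of each of the 6 other genotypes. The windows were thus chosen by their mean levels in all 7 genotypes, so every value set against lin-61 is given as a description, without a test. Being raised in lin-61 alone holds only relative to the rule. In the lin-61 set-25 double mutant, 37 of the windows were also called higher than in wild type. This was 13.4%, a smaller share than the 24% of all windows tested.

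Total RNA, depleted of ribosomal RNA, was sequenced from early embryos before the bean stage, grown at 20 °C, as 3 libraries for each genotype, 21 in all. The genotypes were lin-61(tm2649) I, here lin-61, and that allele joined with set-25(n5021) III (lin-61 set-25) or with met-2(n4256) III (lin-61 met-2). The allele nrde-3(tm1116) X was joined with the same met-2 allele (nrde-3 met-2) or the same set-25 allele (nrde-3 set-25), or stood alone (nrde-3), and the wild type was N2 (Bristol). The study asks how the 2 routes named in its title, through LIN-61 and through NRDE-3, bring the histone methyltransferase to chromatin. The embryos were sequenced whole, so fewer cells of a type and less RNA per cell cannot be told apart.

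LIN-61 is a nuclear protein with MBT repeats that binds methylated lysine 9 of histone H3, a mark of silent chromatin. MET-2 and SET-25 are the methyltransferases that place this mark in worm embryos, MET-2 the mono- and dimethyl and SET-25 the trimethyl form. NRDE-3 is an Argonaute protein that carries small RNAs into the nucleus of somatic cells and silences matching transcripts. In worms the mark covers transposons, other repeats and some genes, mostly on the arms of the autosomes, and its loss is known to raise RNA from some of them.

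The deposited counts carry coordinates of genome build ce10 and no gene or repeat names, so windows are named by chromosome and first base, and no gene is assigned to them. Libraries held 59462797 to 66437115 reads in lin-61, 22275571 to 28834312 in the 5 other mutant genotypes and 54839178 to 67553226 in N2. A genotype with 0 reads over its 3 libraries could still hold 3, which is 0.0156 CPM in lin-61, 0.0385 to 0.0413 CPM in the other mutants and 0.0167 CPM in N2; this floor covers counting error only. The titles of the lin-61 and N2 samples begin with 875 and those of the other 5 genotypes with 1121, so in any comparison between these sets the prefix and the genotype cannot be told apart. The libraries labelled lin-61 met-2 go against their label. In a stretch of chromosome I from 7249001 to 7251000, lin-61 libraries summed to 9.33 to 10.9 CPM and lin-61 set-25 libraries to 17.5 to 20.1 CPM, but those labelled lin-61 met-2 summed to 125 to 153 CPM, against 90.7 to 97.2 CPM in N2. From 372001 to 377000 on chromosome X, they summed to 62.5 to 74.2 CPM, beside 55.3 to 88.9 CPM in the 3 genotypes with nrde-3, while lin-61 libraries stood at 365 to 371 CPM and N2 libraries at 386 to 435 CPM. From 13288001 to 13289000 on chromosome III, there were 0 reads in both set-25 genotypes and under the lin-61 met-2 label and 1 read under the nrde-3 met-2 label. Levels there were 24.1 to 24.7 CPM in lin-61, 22 to 29.4 CPM in nrde-3 and 26.5 to 33.4 CPM in N2. That stretch thus does not separate the met-2 from the set-25 labels, and the nrde-3 met-2 label is uncertain too. These stretches were chosen after their values were seen. Without the libraries labelled lin-61 met-2 the rule gave 282 windows, and without those labelled nrde-3 met-2 it gave 322, the 277 among them each time.

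The 277 windows were a small remainder of those raised in lin-61 over N2. Of 64381 windows with at least 0.5 CPM in lin-61, 8390 were at 2 times N2 or more, and the chosen windows were 3.30% of these. The lin-61 set-25 libraries removed most: 418 of the 8390 windows (4.98%) were also at 2 times lin-61 set-25, and in 6759 the mean of lin-61 set-25 was at or above that of lin-61. The count at 2 times or more was 703 against nrde-3 set-25, 926 against lin-61 met-2, 1606 against nrde-3 met-2 and 3765 against nrde-3.

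The number of windows depended on the scaling of the libraries. TMM factors, which correct library sizes for differences in composition, were 0.737 to 0.862 in lin-61, 0.956 to 1.27 in the 5 other mutant genotypes and 0.758 to 0.788 in N2. With TMM-scaled CPM the same rule gave 540 windows, which held 257 of the 277. Of 8632 windows at 2 times N2 or more on that scale, 849 were also at 2 times lin-61 set-25, 1411 at 2 times nrde-3 set-25, 1815 at 2 times lin-61 met-2, 3004 at 2 times nrde-3 met-2 and 5774 at 2 times nrde-3. The mean of lin-61 set-25 was at or above that of lin-61 in 5449 of them. The rule was also run with each of the 7 genotypes in turn in the place of lin-61. It gave 277 windows for lin-61, 5090 for lin-61 set-25, 7979 for nrde-3 met-2 and 22 for N2. The count was 0 for lin-61 met-2, 3 for nrde-3 set-25 and 1 for nrde-3. At a level of 1 CPM it was 242 for lin-61, 4110 for lin-61 set-25, 1322 for nrde-3 met-2 and 16 for N2. The nrde-3 met-2 libraries carried a diffuse background, described below, whose part in their count was not tested.

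Most of the chosen windows cleared the rule by little. The ratio of the lin-61 mean to the highest other genotype mean had a median of 2.40 and a highest value of 12.4, and it was below 2.2 in 92 windows, at least 3 in 70 and at least 5 in 21. The mean lin-61 level was at least 1 CPM in 242 windows, at least 10 CPM in 82 and at least 100 CPM in 14. The windows were well covered in lin-61, with 96 reads over the 3 libraries in the lowest and 874 in the median window. All 3 lin-61 libraries lay above all 18 others in 253 windows, a state found in 1.9% of the 64381 windows, and above all 3 N2 libraries in 267, a state found in 23.5%. Both counts follow from the rule. The highest of the 3 lin-61 libraries gave a median of 38.0% of a window's lin-61 CPM, and over 50% in 6 windows.

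At the level threshold, windows X 8449501 (0.504 CPM) and I 2362501 (0.507 CPM) lay just inside. The nearest outside that also met the fold threshold, V 11938501 (0.364 CPM) and IV 5687001 (0.360 CPM), lay well below it. At the fold threshold, II 2521001 (2.001 times) and III 20501 (2.005 times) lay just inside, and X 13448501 (1.99988 times) and III 9632001 (1.9995 times) just outside.

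**Figure D1:**
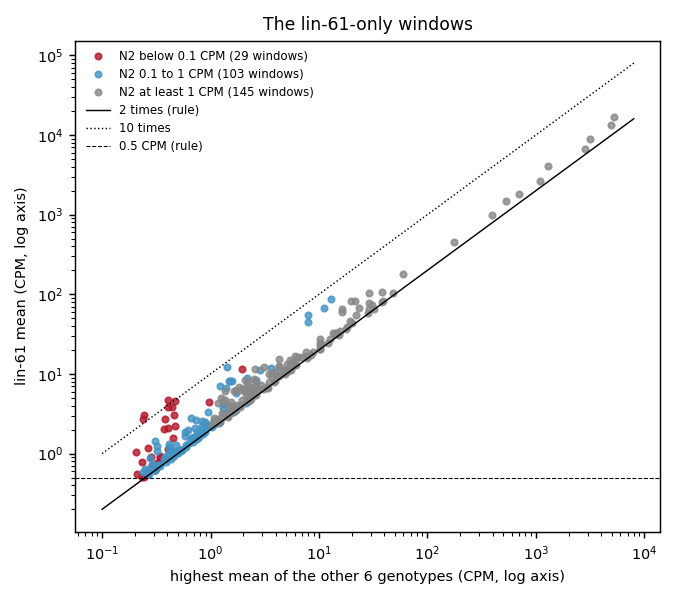
Mean lin-61 level (CPM, log axis) of the 277 windows against the highest mean of the other 6 genotypes (CPM, log axis), with colours for the N2 level and lines at 2 and 10 times. Most windows lie close to the 2 times line, and 3 windows lie above the 10 times line.

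The windows fell into 3 ranges of N2 level. In 29 windows of 11 regions N2 was below 0.1 CPM, and there the lin-61 median was 1.16 CPM and the median ratio to the highest other genotype 4.37. In 103 windows N2 was between 0.1 and 1 CPM, with a lin-61 median of 1.59 CPM and a median ratio of 2.35. In 145 windows N2 was at least 1 CPM, with a lin-61 median of 10.4 CPM and a median ratio of 2.37. The highest of the other genotypes was lin-61 set-25 or nrde-3 met-2 in all 29 windows of the first range, and N2 itself in 84 of the 145 windows of the last.

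Neighbouring windows were joined into regions where at most 1 other window lay between them, which gave 162 regions numbered by their count of windows. Of these, 109 were a single window, 53 held at least 2 windows (168 windows in all) and 9 held at least 5 (61 windows). Windows of a region may share a transcript, and they are not independent of each other. A lack of overlap between lin-61 and another genotype, given below for regions and windows, follows largely from the rule. It is a description and no support for a region.

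In 5 regions, with 36 windows, lin-61 stood at 30 times N2 or more, and these are here called the quiet stretches. They were picked by that ratio and not by their N2 level. Windows below 0.1 CPM in N2 lay in 11 regions, so other regions held windows as low. The region with most windows was region 1, on chromosome V from 17569001 to 17574000, with 9 windows. Its mean level per window was 30.9, 32.4 and 30.6 CPM in the lin-61 libraries, 4.98, 5.66 and 3.98 in lin-61 set-25, and 0.281, 0.244 and 0.302 CPM in N2. The libraries of these genotypes did not overlap, and lin-61 set-25 was intermediate. The ratio was 113 for lin-61 over N2, 17.7 for lin-61 set-25 over N2 and 6.42 for lin-61 over lin-61 set-25. The remaining genotypes lay lower than lin-61 set-25, with lin-61 met-2 at 0.625 ± 0.159, nrde-3 met-2 at 0.952 ± 0.0271, nrde-3 set-25 at 0.792 ± 0.0597 and nrde-3 at 0.121 ± 0.0343 CPM (SD, n = 3 each). The level of lin-61 dropped at the edges of the region, to 0.168 CPM in the window before it and 0.0879 CPM in the window after it. Its strongest window, V 17571001, had 86.5, 92 and 82 CPM in lin-61, 12.5, 15 and 10.9 in lin-61 set-25, and 0.489, 0.492 and 0.729 CPM in N2. In that window too, every lin-61 library was above every lin-61 set-25 library, and these above every N2 library.

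Regions 3 and 4, also on chromosome V, had 8 windows each and nearly the same values. Region 3, from 8828001 to 8832000, stood at 5.98, 5.36 and 6.07 CPM per window in lin-61, 1.14, 1.21 and 0.977 in lin-61 set-25, and 0.0888, 0.0791 and 0.107 CPM in N2. Region 4, from 8870001 to 8874000, stood at 5.76, 5.53 and 5.91 CPM in lin-61, 1.13, 1.26 and 1.05 in lin-61 set-25, and 0.0759, 0.0791 and 0.105 CPM in N2. In both, the 3 genotypes did not overlap, and lin-61 was at 63.3 times N2 in region 3 and 66.2 times N2 in region 4. The starts of the regions lay 42 kb apart, and the window at the same place in each had a like level, with lin-61 ratios of region 4 to region 3 of 0.696 to 1.24 over the first 7 windows and 3.15 in the last. None of the 76 windows between them was chosen. This likeness was noticed after the values were seen. How reads with several matches were counted is not given in the sources used here, so the levels of regions 3 and 4 are uncertain as 2 separate loci. The 3 windows with a ratio of at least 10 to the next genotype were here: V 8873001 at 12.42 and V 8830501 at 11.36, both over lin-61 set-25, and V 8873501 at 11.41 over nrde-3 met-2. Window V 8830501 had 4.49, 4.70 and 4.77 CPM in lin-61, and it had 0 reads in all 3 nrde-3 libraries and 7 reads over the 3 N2 libraries.

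Region 5, on chromosome IV from 5684001 to 5688500, had 7 windows. Its level per window was 2.24, 2.49 and 2.36 CPM in lin-61, 0.490, 0.466 and 0.494 in lin-61 set-25, and 0.0656, 0.0729 and 0.0886 CPM in N2. The libraries of the 3 genotypes did not overlap, and the ratio of lin-61 to N2 was 31.3. Its 3 nrde-3 set-25 libraries, at 0.0590, 0.0164 and 0.0385 CPM, lay below every N2 library.

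Region 12, on chromosome V from 19429501 to 19431500, had 4 windows and differed from the other 4 stretches in its lin-61 set-25 level. It stood at 1.5, 1.54 and 1.65 CPM per window in lin-61, 0.0282, 0 and 0.0407 in lin-61 set-25, and 0.00370, 0.0220 and 0.00456 CPM in N2. Here lin-61 set-25 overlapped N2, with 7 reads over 3 libraries in each, so that the ratio of lin-61 to lin-61 set-25 was 68 and that of lin-61 to N2 155. The next genotype was nrde-3 met-2 at 0.323, 0.173 and 0.648 CPM. These 3 libraries also carried a diffuse background: over 32328 windows with at most 2 reads in the lin-61 and N2 libraries together, nrde-3 met-2 libraries averaged 0.0955 to 0.361 CPM a window and nrde-3 libraries 0.00509 to 0.00646. The part of this background in the nrde-3 met-2 values was not tested.

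**Figure D2:**
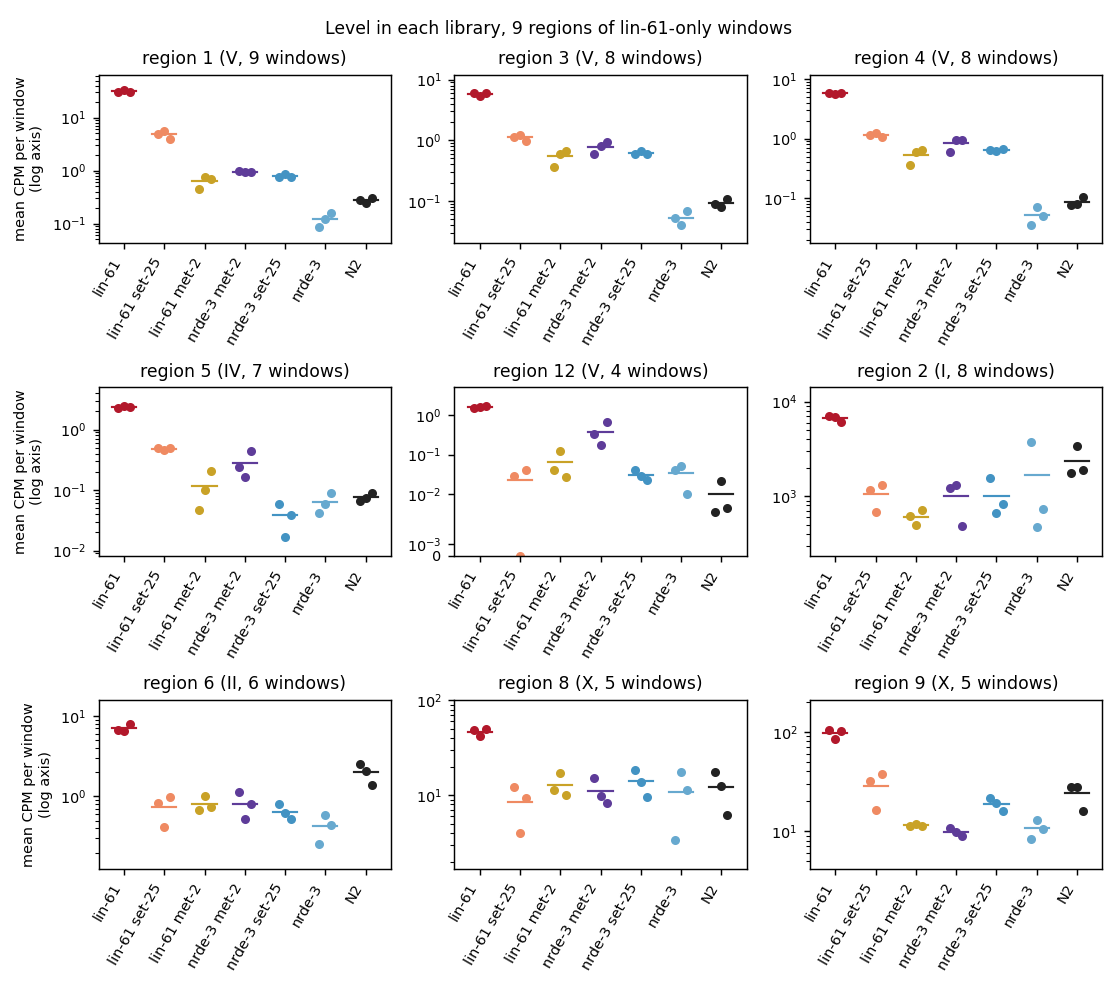
Mean CPM per window (log axis) of 9 regions in each of the 21 libraries, with a bar at the mean of the 3 libraries of a genotype. The lin-61 points lie above all others in each panel, and those of lin-61 set-25 come next in regions 1, 3, 4 and 5 but are at the N2 level in region 12, where 1 library is at 0 and the axis is linear below the lowest point above 0.

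**Figure D3:**
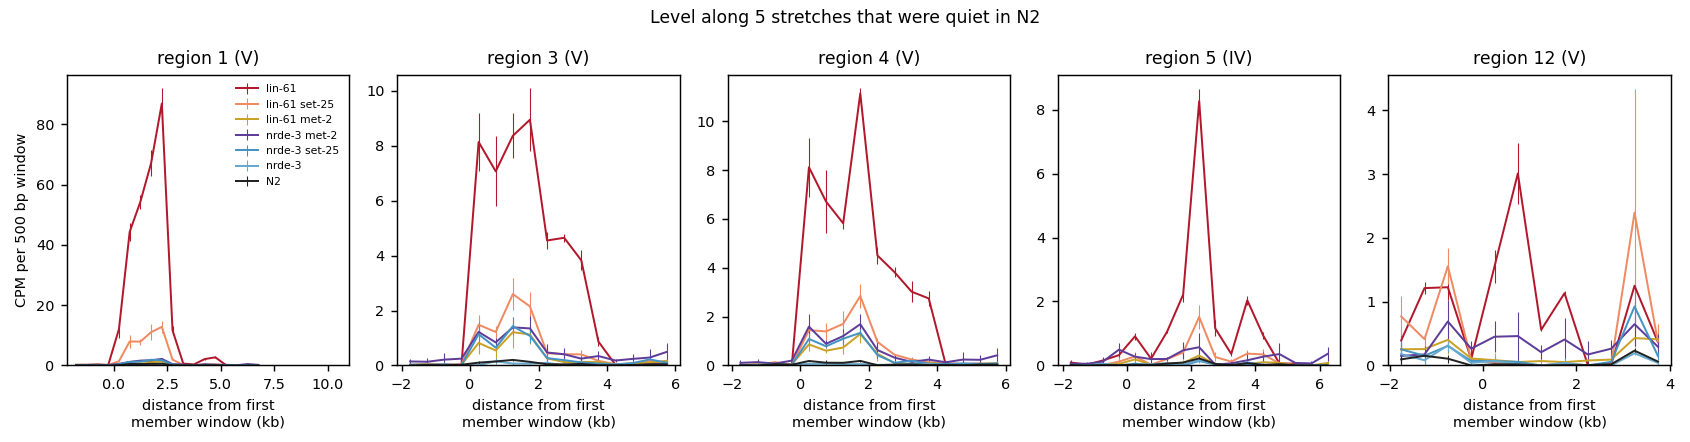
Mean CPM per 500 bp window (lines, with SD over 3 libraries as bars) along the 5 stretches, against distance from the first chosen window (kb). The lin-61 signal rises within the first windows in regions 1, 3 and 4, and the windows on either side of region 12 carry signal in lin-61 set-25 as well.

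A further 5 regions stood at 10 times N2 or more in lin-61, and each was small. Region 37, 2 windows on chromosome III from 7670001 to 7671000, had 2.48, 2.14 and 2.65 CPM per window in lin-61 and 0.215, 0.202 and 0.191 CPM in N2, with no overlap and a ratio of 12. The single window II 10201501 had 13.6, 8.20 and 13.9 CPM in lin-61 and 1.18, 0.721 and 0.419 CPM in N2, again without overlap, a ratio of 15.4. The single windows III 7672001, X 11485001 and II 2521001 had ratios of 13.8, 21.5 and 28.3, and rest on 9, 28 and 4 N2 reads.

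The highest levels of all came from the right end of chromosome I, which in C. elegans holds the tandem array of ribosomal RNA genes. Which windows fall in that array was not determined here, and ribosomal RNA had been depleted before sequencing. Region 2, from 15062501 to 15067500, had 8 windows with 7081, 6886 and 6165 CPM per window in lin-61 and 1773, 3384 and 1878 CPM in N2. The groups did not overlap, and the ratio was 2.86. In nrde-3 the libraries stood at 3788, 472 and 727 CPM, so 1 of them reached above every N2 library while the others lay below. Window I 15066501 was the highest chosen window, with 15172, 18314 and 17348 CPM in lin-61 and 4431, 7482 and 3727 CPM in N2. The last 25 windows of the chromosome, from 15060001 to 15072423, held 10 of the chosen windows and took 7.02 to 9.46% of all reads of the lin-61 libraries, 1.72 to 7.98% of those of the 5 other mutant genotypes and 3.26 to 4.95% of those of N2. The part of incomplete or uneven depletion in these values was not tested. With column sums that leave these windows out, the rule gave 325 windows, all 277 included.

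The other 231 windows, in 155 regions, had a median of 1.33 CPM in N2 and 4.29 CPM in lin-61, with a median ratio of 3.06. Some of them were close to silent in N2 too, such as II 2521001 with 4 reads over the 3 libraries. Region 6, on chromosome II from 1233501 to 1237000, had 6 windows at 6.69, 6.46 and 7.84 CPM per window in lin-61 and 2.52, 2.09 and 1.40 CPM in N2. These did not overlap, and the 5 other mutant genotypes all lay lower still, with means of 0.426 to 0.813 CPM. Region 9, on chromosome X from 8748501 to 8751000, had 5 windows at 104, 83.8 and 102 CPM in lin-61, 31.6, 16.4 and 37.4 in lin-61 set-25, and 27.6, 28.0 and 16.1 CPM in N2. Here lin-61 set-25 overlapped N2 and lin-61 was above both. Region 8, on chromosome X from 5825501 to 5828000, had 5 windows at 48.6, 42.0 and 50.2 CPM in lin-61 and 17.7, 12.5 and 6.13 CPM in N2, without overlap. Region 7, 5 windows on chromosome V from 6679001 to 6682000, averaged 12.8 ± 0.497 CPM in lin-61 and 5.71 ± 1.91 CPM in N2 (SD, n = 3 each).

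Further windows with high lin-61 levels lay in regions of 1 to 3 windows, at ratios of 2.12 to 2.77 to the next genotype. Window IV 6646001 had 102, 97.5 and 119 CPM in lin-61 and 37.1, 35.5 and 17 CPM in N2, with a ratio of 2.77 to the next genotype, nrde-3 set-25. Window V 20670501 had 98.0, 93.6 and 120 CPM in lin-61 and 62.2, 47.8 and 35.4 CPM in N2, which was its next genotype, at a ratio of 2.14. In neither window did lin-61 overlap N2. The other named windows of high level, X 5823501, X 17481001, V 7833001 and II 569001, averaged 82.2, 81.1, 78.6 and 73.8 CPM in lin-61, at ratios of 2.12, 2.13, 2.69 and 2.38 to the next genotype. Those of lower level with the largest ratios outside the regions above were III 10053501 (4.67), I 12566001 (4.58) and I 7377001 (4.51).

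In these 231 windows 1 library often set the low end of its genotype. The lowest of 3 libraries was lin-61 b in 140 windows, lin-61 set-25 b in 198, nrde-3 set-25 c in 158, nrde-3 a in 167 and N2 c in 182. Median levels were 3.78 CPM in lin-61 b beside 4.37 and 4.50 CPM in the other lin-61 libraries, 0.669 CPM in lin-61 set-25 b beside 1.43 and 1.59 CPM in the other lin-61 set-25 libraries, 0.943 CPM in nrde-3 set-25 c beside 1.28 and 1.11 CPM, 0.451 CPM in nrde-3 a beside 0.974 and 0.698 CPM, and 1.09 CPM in N2 c beside 1.61 and 1.44 CPM. The rule without N2 c gave 237 windows and without N2 a 314. The part of these libraries in the choice of windows was not tested further.

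The comparisons that leave out the lin-61 single mutant do not set its level against another genotype. Its libraries still entered the filter, the scaling and the shared estimate of spread. In all, 6 such comparisons were tested with edgeR over 97353 windows that passed a filter on low counts, 275 of the 277 among them. Calls were made at an adjusted p below 0.05 (Benjamini-Hochberg, over all tested windows). The filter used all 21 libraries, so a window could be tested on the strength of genotypes outside the comparison. These include lin-61, where the rule had made the windows high. For windows that passed only in this way, the adjusted p is given as a description and carries no support. The counts of called windows below, also those by region, include such windows. With only the libraries of the 2 genotypes compared, 189 to 239 of the 277 windows passed the filter. Nothing in the labels or counts shows whether the 3 libraries come from separate cultures, since the growth protocol names fewer replicates than there are libraries. The p-values then measure only how these libraries spread, which may be technical. The rule also admitted a window only where all 6 other genotypes were low beside lin-61, so a lower level in either group of a comparison is in part a matter of how windows were chosen.

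In lin-61 set-25 against N2, 37 of the 277 windows were higher (13.4%, beside 24% of all windows tested) and 107 were lower (38.6%, beside 19.1%). The higher windows lay in 11 regions, and 29 of them in regions 1, 3, 4 and 5, where 7 of 9, 8 of 8, 8 of 8 and 6 of 7 windows were called. Region 37 gave 2 of 2, and region 12 none of 4. Window V 17571001 of region 1, with the levels given above, was higher in lin-61 set-25 by 3.87 ± 0.30 on the log2 scale (SE; adjusted p = 3.2e-09). Window V 8872001 of region 4 had 73 reads over the 3 lin-61 set-25 libraries and 2 over the 3 N2 libraries, a ratio of 87.2 with an exact binomial 95% interval of 23.3 to 734 (adjusted p = 4.16e-07). Window IV 5688001 of region 5 had 26 reads and 3 reads, a ratio of 20.7 with an interval of 6.35 to 107 (adjusted p = 0.00134). It passed the filter only through genotypes outside the comparison, as did X 15200501 in the next paragraph. The libraries compared also differ in title prefix.

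The 107 lower windows lay in 73 regions and included all 6 windows of region 6 and 7 of the 8 windows of region 2. Window II 1233501 of region 6 had 0.264, 0.126 and 0.204 CPM in lin-61 set-25 and 2, 2.23 and 1.22 CPM in N2. The groups did not overlap, and the window fell by 3.78 ± 0.34 on the log2 scale in lin-61 set-25 (SE; adjusted p = 2.14e-08). Window I 13045001 fell by 2.98 ± 0.49 (SE; adjusted p = 3.04e-05), and X 15200501 had 3 reads in lin-61 set-25 and 71 in N2, a ratio of 0.101 with an interval of 0.0203 to 0.307 (adjusted p = 0.000599). The balance depended on the scaling: with column sums in place of TMM, 52 of the 277 windows were higher and 38 lower. The balance of all 97353 windows tested moved too, from 23321 higher and 18597 lower to 43943 higher and 6364 lower. Without lin-61 set-25 b, 64 of the 277 windows were lower, beside 19921 of 114232. When only lin-61 set-25 and N2 were fitted, 239 of the 277 windows were tested, 27 were higher and 80 lower. All 88179 windows in that fit gave 19479 higher and 18210 lower.

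Against nrde-3 set-25, which shares the set-25 mutation and the title prefix, lin-61 set-25 was higher in 12 of the 277 windows (4.33%, beside 1.67% of all windows tested) and lower in 1 (0.361%, beside 0.612%). The 12 windows lay in 4 regions, with 6 of 9 windows in region 1, 3 of 7 in region 5, 2 of 2 in region 37 and 1 of 8 in region 4. Window V 17571001 had 12.5, 15 and 10.9 CPM in lin-61 set-25 and 1.86, 1.84 and 1.53 CPM in nrde-3 set-25. The groups did not overlap, and the difference was 2.75 ± 0.29 on the log2 scale (SE; adjusted p = 4.07e-06). Window III 7670001 of region 37 differed by 2.38 ± 0.42 (SE; adjusted p = 0.00232), and IV 5685501 of region 5 had 30 reads in lin-61 set-25 and none in nrde-3 set-25, which is 9.67-fold higher against the floor of 3 reads over the group (adjusted p = 0.00344). The last window passed the filter only through genotypes outside the comparison. The single lower window, IV 6646001, fell by 1.1 ± 0.30 (SE; adjusted p = 0.0493) and lost its call under most alternatives. When only the libraries of these 2 genotypes were fitted, 204 of the 277 windows were tested, 5 were higher and 0 lower. All 81320 windows in that fit gave 96 higher and 66 lower. Without lin-61 set-25 b, 19 of the 277 windows were higher, beside 5036 of 114232.

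With lin-61 met-2 as labelled set against N2, 18 windows were higher (6.5%, beside 13.2% of all windows tested) and 84 lower (30.3%, beside 12%). In region 3, 6 of 8 windows were higher, in region 4, 5 of 8, and in region 1, 2 of 9. Window V 8872001 had 37 reads in lin-61 met-2 and 2 in N2, a ratio of 43.8 with an interval of 11.3 to 375 (adjusted p = 3.59e-05). Window II 2521001 had 21 and 4 reads (adjusted p = 0.00872), and V 19430501 had 5 and 0 reads (adjusted p = 0.0428), a call that was lost whichever library was left out except lin-61 met-2 c. All 3 of these windows passed the filter only through genotypes outside the comparison. Among the lower windows X 7794501 had 1 read in lin-61 met-2 and 51 in N2, X 4409501 had 4 and 101, and X 15200501 had 3 and 71 (adjusted p = 0.00249, 0.00068 and 0.00217), and X 4409501 alone of these passed the filter in the 2 genotypes compared. All 6 windows of region 6 and all 8 of region 2 were lower. With column sums 26 windows were higher and 43 lower, beside 30317 and 4624 of all 97353 tested. With only these 2 genotypes in the fit, 225 of the 277 windows were tested, 13 were higher and 100 lower. All 84097 windows in that fit gave 14683 higher and 14608 lower. Leaving out N2 b or lin-61 met-2 c gave 11 higher windows each, beside 9738 of 112266 and 10896 of 112213. Leaving out N2 a gave 55 lower windows, beside 10096 of 112256.

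In nrde-3 against N2, 0 windows were higher (beside 3.94% of all windows tested) and 125 were lower (45.1%, beside 8.25%), in 85 regions. At an unadjusted p below 0.05, edgeR gave 1 higher window, and no count over all windows was made at that threshold. DESeq2 gave 0 at its adjusted threshold, beside 5639 of the 93569 windows it tested. Median log2 differences were -1.21 over the chosen windows and 0.05 over all windows tested. The lower windows included 5 of 9 in region 1, all 6 in region 6 and all 5 in region 9. Window II 1233501 fell by 3.88 ± 0.35 on the log2 scale in nrde-3 (SE; adjusted p = 1.53e-07). Window V 17573001 had 0 reads in nrde-3 and 12 in N2 (adjusted p = 0.0469), and I 10927501 had 2 and 56 (adjusted p = 0.0237). Both of these calls were lost without some of the single libraries, and both windows passed the filter only through genotypes outside the comparison. With only nrde-3 and N2 in the fit, 206 of the chosen windows were tested, 0 were higher and 111 lower. All 78174 windows in that fit gave 4135 higher and 7987 lower. With column sums 1 chosen window was higher and 73 lower, beside 20581 and 3527 of all 97353 tested. The 3 comparisons against N2 share its libraries, so their calls are not independent of each other.

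The nrde-3 double mutants could be set against nrde-3 within 1 title prefix. Both of these comparisons share the nrde-3 libraries with each other and with the one against N2. In nrde-3 set-25 against nrde-3, 32 windows were higher (11.6%, beside 2.46% of all windows tested), in 18 regions, and 0 were lower (beside 0.232%). Region 1 gave 7 of 9 and regions 3 and 4 gave 5 of 8 each, while regions 5 and 12 gave none. Window V 8871501 had 1.49, 1.30 and 1.21 CPM in nrde-3 set-25 and 0.0410, 0.0811 and 0.0411 CPM in nrde-3. The groups did not overlap, and the difference was 4.47 ± 0.44 on the log2 scale (SE; adjusted p = 5.78e-06). Window V 8828001 had 82 reads and 1 read, a ratio of 82.9 with an interval of 14.5 to 3316 (adjusted p = 0.000107). V 17573001 had 15 and 0 reads, 5.06-fold higher against the floor of 3 reads (adjusted p = 0.0273, lost without some single libraries). Window V 17573001 passed the filter only through genotypes outside the comparison. Of lower windows edgeR gave 1 at an unadjusted p below 0.05, a threshold at which no count over all windows was made. DESeq2 gave 0 lower windows at its adjusted threshold, beside 630 of 97344. The count of higher windows was 12 without nrde-3 c, 16 without nrde-3 a and 20 without nrde-3 set-25 a. The counts over all windows were then 481 of 114467, 989 of 114468 and 663 of 114119. With only these 2 genotypes in the fit, 189 of the 277 windows were tested and 35 were higher, beside 3529 of 75398.

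In nrde-3 met-2 as labelled against the same nrde-3 libraries, 44 windows were higher (15.9%, beside 6.67% of all windows tested), in 17 regions, and 0 lower (beside 0.833%). All 5 quiet stretches had called windows: 9 of 9 in region 1, 8 of 8 in region 3, 6 of 8 in region 4, 4 of 7 in region 5 and 3 of 4 in region 12. These counts include windows that passed the filter only through genotypes outside the comparison. How many in each region passed on the reads of nrde-3 met-2 and nrde-3 alone was not counted. Windows V 8830501, V 17573001 and V 19430501 had 32, 31 and 16 reads in nrde-3 met-2 and 0 each in nrde-3. Against the floor of 3 reads they were 10.05-fold, 9.73-fold and 5.02-fold higher (adjusted p = 0.000899, 0.0014 and 0.0257). All 3 passed the filter only through genotypes outside the comparison. Of lower windows edgeR gave 4 at an unadjusted p below 0.05, a threshold at which no count over all windows was made. DESeq2 gave 0 lower windows at its adjusted threshold, beside 1852 of 97344. The part in these counts of the diffuse background described above was not tested. With only the libraries of these 2 genotypes in the fit, 197 windows were tested and 19 were higher.

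**Figure D4:**
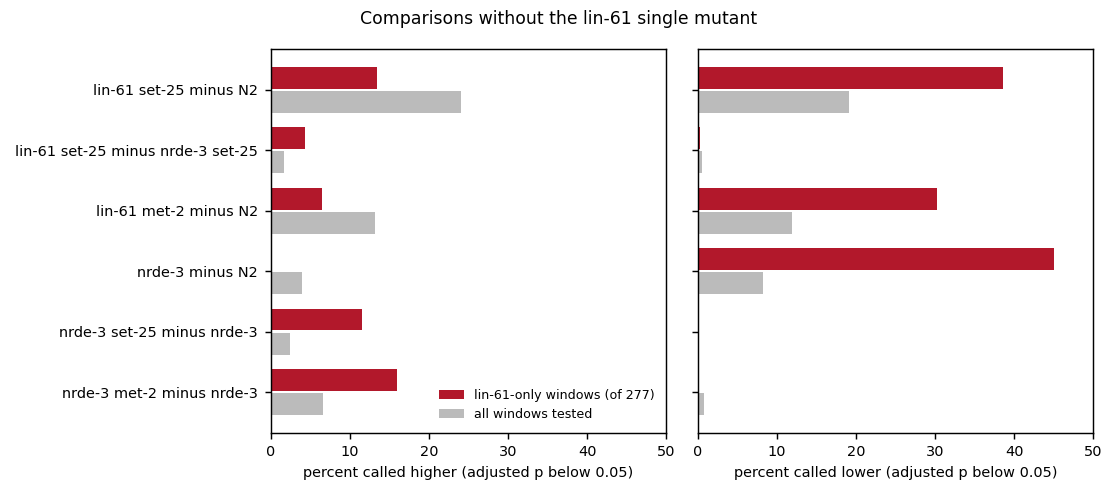
Percent of the 277 windows (red) and of all windows tested (grey) called higher (left) and lower (right) in the 6 comparisons without the lin-61 single mutant, at an adjusted p below 0.05. The red bars are shorter than the grey for windows higher than N2 and longer for those lower than N2, and they are longer for windows higher in the nrde-3 double mutants than in nrde-3.

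By chromosome, the 277 windows were most frequent on X, with 65 windows in 40 regions. This was 23.5% of the chosen windows, beside 14.7% of the 64381 windows with at least 0.5 CPM in lin-61. Chromosome V held 60 windows (21.7%, beside 14.8%) in 21 regions. Chromosome III was lowest, with 22 windows (7.94%, beside 18.3%). On the autosomes 164 of 212 windows (77.4%) lay in the outer parts of the chromosomes (all but the middle of 3 equal parts), which hold 66.7% of all windows, beside 61.4% of the windows with at least 0.5 CPM in lin-61. The share differed between autosomes: it was 55 of 60 windows on I (beside 61.7%) but 37 of 60 on V (61.7%, beside 59.9%). On X it was 29 of 65 (44.6%), beside 66.3%. Since neighbouring windows share regions, these shares are given without a test.

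**Figure D5:**
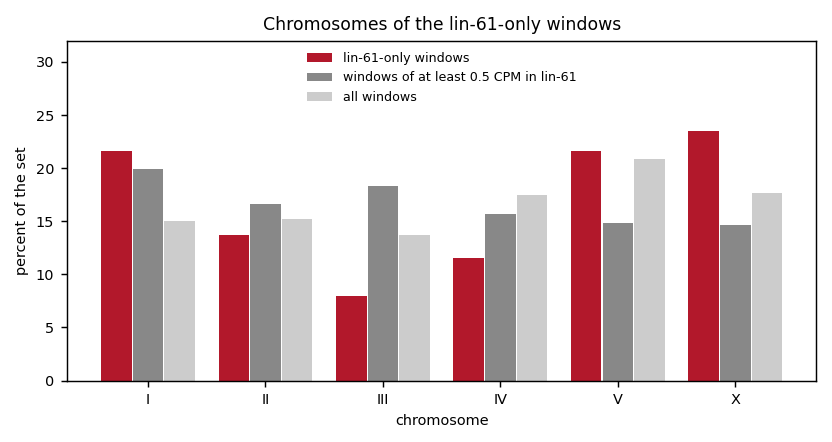
Percent of the 277 windows (red), of the windows with at least 0.5 CPM in lin-61 (dark grey) and of all windows (light grey) on each chromosome. The red bars are the tallest on I, V and X and the shortest on II, III and IV.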

How the data were processed

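Raw read counts per 500 bp window were deposited by the authors for chromosomes I to V and X, in genome build ce10 per the submitters' processing notes, without gene names. The aligner, the counting tool and the treatment of reads with several matches are not given in the sources used here. Columns were matched to genotypes by name. Their letters (a, b or c) could not be linked to the numbered titles. A further 6 columns of per-sample values matched no sample and were not used. An annotation of another build was not used here, so no gene names or sequences are given.

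The rule was applied to CPM from column sums (Python 3.11.15, pandas 2.3.3). The members, the lists and the rule for named windows were chosen with earlier results of these data known. Named windows are those with the highest lin-61 means (10), the highest ratios (8), the regions with most windows (5), the windows nearest each threshold (2 on each side) and up to 3 called windows per direction and comparison, 1 per region. Other windows and regions described were chosen after their values were seen. Counts of all 21 libraries entered 1 quasi-likelihood model of edgeR 4.0.16 under R 4.3.3, with TMM scaling, filterByExpr at its minimum count of 10, a term for each genotype and 14 residual degrees of freedom, and p-values were adjusted by Benjamini-Hochberg over all tested windows. Windows took the place of genes in these tests. The test was tried on simulated counts for 1 comparison only, lin-61 set-25 against nrde-3 set-25, where it missed most of the smaller differences. Ratios of windows with few reads compare reads pooled over 3 libraries with an exact (Clopper-Pearson) 95% interval, which covers counting error only. Folds against the floor of 3 reads leave out the counting error of the genotype with reads, so they are not lower limits. Alternatives were RLE scaling, column sums, no filter, DESeq2 1.42.0, only the 2 genotypes compared, and leaving out each library.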

Additional observations from a re-analysis of the deposited data

How the results depend on the processing

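The count of windows chosen by the rule was 277, and it became 540 with TMM-scaled CPM, 70 at 3-fold, 473 without lin-61 set-25 in the rule and 1341 without N2. It was 237 to 314 with 1 lin-61 or N2 library left out. In lin-61 set-25 against N2, column sums gave 38 lower windows, beside 6364 of all 97353 tested. Leaving out 1 library gave 29 to 41 higher and 64 to 113 lower. The counts over all windows were then 16438 to 25755 and 13915 to 19921, of 111562 to 114232. In lin-61 set-25 against nrde-3 set-25, fitting these 2 genotypes alone gave 5 higher and 0 lower, beside 96 and 66 of all 81320 tested. RLE scaling and column sums gave 0 lower each, beside 536 and 293 of 97353, and no filter gave 2, beside 563 of 200398. With 1 library left out, 9 to 19 were higher and 0 to 2 lower. All windows then gave 295 to 5036 higher and 171 to 1063 lower, of 111562 to 114524. In lin-61 met-2 against N2, column sums gave 43 lower, beside 4624 of all 97353 tested. Leaving out 1 library gave 11 to 15 higher and 55 to 85 lower. The counts over all windows were then 6728 to 10896 and 8552 to 11138, of 112213 to 114485. In nrde-3 against N2, column sums gave 1 higher and 73 lower, beside 20581 and 3527 of all 97353 tested. In nrde-3 set-25 against nrde-3, leaving out 1 library gave 12 to 27 higher, beside 481 to 1766 of 112165 to 114524. For nrde-3 met-2 over nrde-3, the fit of these 2 genotypes alone gave 19 higher, beside 2763 of all 80602 tested. No filter gave 9 lower, beside 15924 of 200398. Leaving out 1 library gave 0 to 3 lower, beside 456 to 4971 of 99111 to 114468. Column sums moved the log2 difference by 0.62 in lin-61 set-25, 0.46 in lin-61 met-2 and 0.44 in nrde-3 against N2, by 0.14 in lin-61 set-25 against nrde-3 set-25, and by 0.05 in each nrde-3 double mutant against nrde-3. In narrower outer parts of the autosomes, with 50% of all windows, lay 54.7% of the chosen windows, beside 43.2% of those with at least 0.5 CPM in lin-61. At 1 CPM the rule gave 1322 windows for nrde-3 met-2, 1 for nrde-3 set-25 and 0 for nrde-3. Of 25 named windows and comparisons, 0 changed direction under the alternatives and 7 lost a call under at least 1. The causes were not tested. Depth limits windows with few reads: 56 of the 277 were below 0.1 CPM in nrde-3, and 26 had at most 3 reads there. No paired analysis was possible because the letters of the columns could not be linked to replicate numbers, so the replicate block was not run.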
